A study of Saccharomyces cerevisiae with 12 samples.

Results

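Lysine synthesis in budding yeast was followed through the messenger RNA levels of 9 genes, LYS1, LYS2, LYS4, LYS5, LYS9, LYS12, LYS14, LYS20 and LYS21, out of 5449 genes measured. The members were taken by gene symbol, and each was read by 1 probe set of the array. Saccharomyces cerevisiae cells in mid-log growth in the rich medium YPD at 25 °C received either 0.3 mM hydrogen peroxide (H2O2), an oxidant, or 0.1% methyl methanesulfonate (MMS), an alkylating agent that damages DNA. A course consisted of 6 arrays, hybridised with RNA from 0, 30, 60, 100, 140 and 180 min. Unstressed cells are represented by both 0 min arrays (n = 2), which serve all comparisons against time 0. For each stress, the 30 and 60 min arrays were pooled as an early window (n = 2), and the arrays of 100, 140 and 180 min as a late one (n = 3). No strain or repeat culture is named in the labels, so a p-value here does not measure the spread among repeat cultures. It rests on 1 spread per gene that all groups share. That spread comes from the time points within each window and from the 0 min arrays of the 2 courses.

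Fungi make lysine by the aminoadipate route, which plants and most bacteria do not use. The route joins acetyl-CoA to 2-oxoglutarate, lengthens the chain to aminoadipate, reduces that to the semialdehyde and ends in lysine through saccharopine. Lysine inhibits the homocitrate synthases at the entry of the route, and the zinc-cluster transcription factor Lys14 activates the LYS genes with the aminoadipate semialdehyde as its co-inducer. Gcn4, the general activator of amino acid synthesis genes, also acts on them when amino acids are scarce. YPD supplies lysine from yeast extract and peptone.

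The plot of signals by time shows all 9 genes. After MMS the genes for both homocitrate synthases (LYS20 and LYS21), the last enzyme (LYS1), the activator of the aminoadipate reductase (LYS5) and the regulator (LYS14) rose by 1.39 to 1.69 times in the late window, while homoaconitase (LYS4) fell by 0.78 on the log2 scale. A signal is a share of the RNA on an array, so fewer cells with a transcript and less transcript per cell cannot be told apart. After peroxide, only LYS5 and LYS20 in the early window and LYS14 in the late window passed the test. The signal of each gene spanned between 0.18 (LYS9) and 1.04 (LYS4) log2 units over the 12 arrays, against a median span of 1.10 for all genes.

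**Figure D1:**
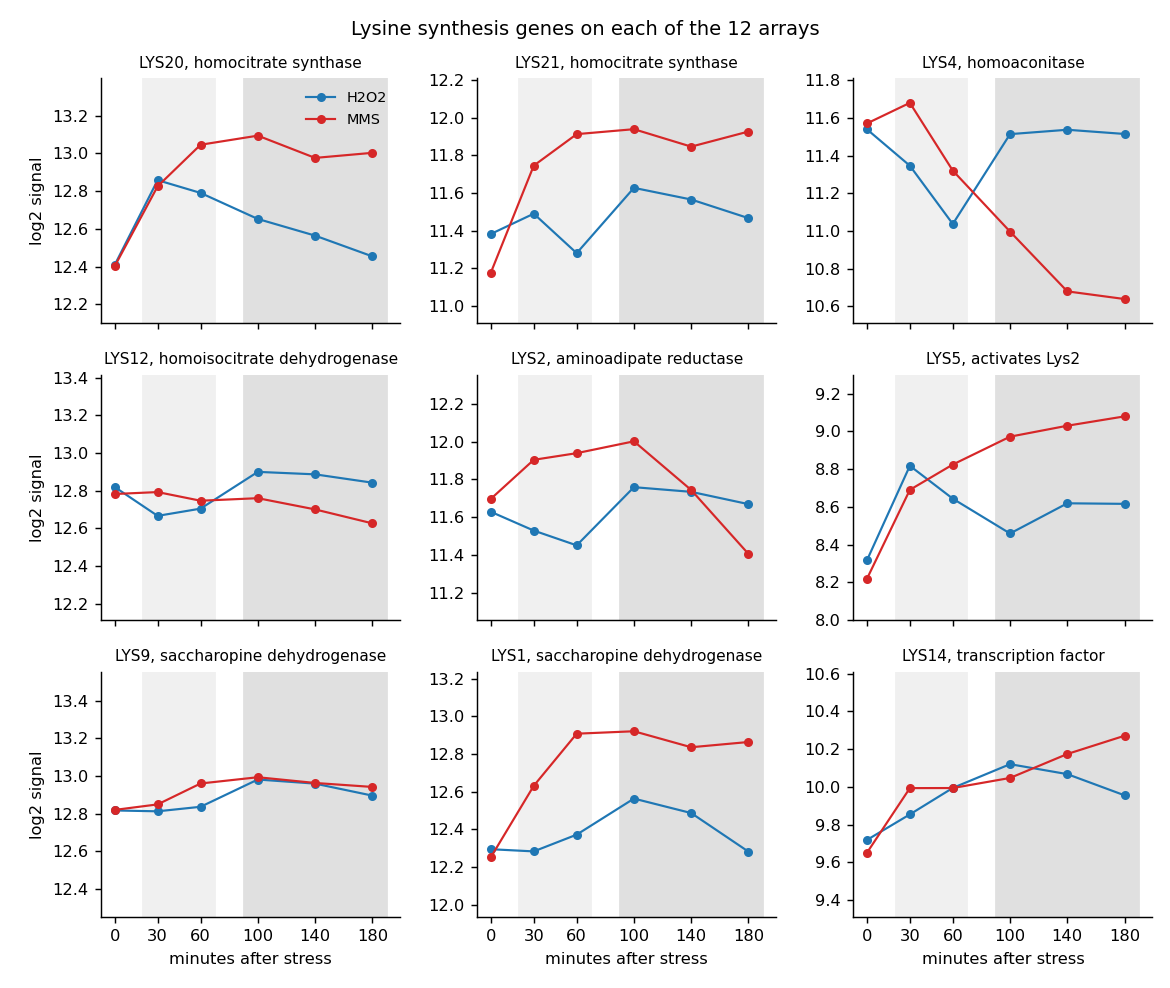
Log2 signal of each lysine synthesis gene (vertical axis, the same span in every panel) against minutes after H2O2 (blue) or MMS (red). Each point is 1 array and the light and dark bands mark the early and late windows. LYS20, LYS21 and LYS1 stay high after MMS, and LYS4 ends at 10.64 after MMS and at 11.51 after H2O2.

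The route opens with homocitrate synthase, which exists as the paralogous isoenzymes Lys20 and Lys21. LYS20 had log2 signals of 12.41, 12.86, 12.79, 12.65, 12.56 and 12.45 from 0 to 180 min of H2O2, and of 12.40, 12.83, 13.05, 13.09, 12.98 and 13.00 over the same times of MMS. The 2 courses were thus alike up to 30 min, after which the H2O2 course drifted back towards its starting signal and the MMS course stayed high. Every stressed array lay above both arrays at 0 min. Such positions against the 0 min arrays, here and below, describe single genes and are no test. The share of all genes placed alike is not reported here. LYS20 rose in the early H2O2 window by 0.42 ± 0.11 (log2 change ± SE from limma, adjusted p = 0.0176), in the early MMS window by 0.53 ± 0.11 (adjusted p = 0.00878) and in the late MMS window by 0.62 ± 0.10 (adjusted p = 0.000343, 1.54-fold). In the late H2O2 window it was measured at 0.15 ± 0.10 (adjusted p = 0.303).

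LYS21 had log2 signals of 11.38, 11.49, 11.28, 11.63, 11.57 and 11.47 in the H2O2 course and of 11.18, 11.75, 11.91, 11.94, 11.85 and 11.93 in the MMS course. The MMS arrays from 30 min on were all above both arrays at 0 min, whereas the H2O2 course dipped at 60 min to between the 2 starting arrays. LYS21 rose by 0.55 ± 0.12 in the early (adjusted p = 0.0106) and 0.62 ± 0.11 in the late MMS window (adjusted p = 0.000541). After H2O2 it was at 0.11 ± 0.12 early (adjusted p = 0.522) and 0.27 ± 0.11 late (adjusted p = 0.113). Whether the early H2O2 changes of the 2 isoenzyme genes differ was not tested. The arrays at 0 min differed by -0.21 log2 for LYS21 (MMS minus H2O2 course), the widest such gap among the 9 genes. Both probe sets are of the plain type that the array maker names for 1 gene, not of the shared types.

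Homoaconitase, the iron-sulfur enzyme encoded by LYS4, and homoisocitrate dehydrogenase, encoded by LYS12, carry out the middle steps before transamination. LYS4 had log2 signals of 11.54, 11.35, 11.04, 11.51, 11.54 and 11.51 from 0 to 180 min of H2O2. It was lowest at 60 min and back at its starting signal from 100 min on. In the MMS course the signals were 11.57, 11.68, 11.32, 10.996, 10.68 and 10.64, so each array from 60 min on was below the one before. The late MMS window fell by 0.78 on the log2 scale from time 0 (SE 0.15, adjusted p = 0.000844, 1.72-fold lower), and all 3 of its arrays lay at least 0.54 log2 below both arrays at 0 min. The early H2O2 window was at -0.36 ± 0.16 (adjusted p = 0.108), with both arrays below time 0, and the early MMS window at -0.06 ± 0.16 (adjusted p = 0.808). LYS4 was the only one of the 9 genes called lower than time 0 in any window. This call held in the 20 alternatives run for the late MMS window, with log2 values from -0.90 to -0.65.

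LYS12 had signals between 12.67 and 12.90 log2 in the H2O2 course and between 12.63 and 12.79 in the MMS course. These are narrow ranges, 0.23 and 0.17 log2, and no window passed the test against time 0. In the late MMS window LYS12 was at -0.11 ± 0.08 (adjusted p = 0.257), with a 95% interval from -0.29 to 0.08.

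Aminoadipate reductase, Lys2, works only after the phosphopantetheinyl transferase Lys5 has attached its carrier group. LYS2 had log2 signals of 11.63, 11.53, 11.45, 11.76, 11.73 and 11.67 after H2O2 and of 11.70, 11.90, 11.94, 12.002, 11.74 and 11.41 after MMS. In the MMS course it was thus highest at 100 min and lowest at 180 min, below both arrays at 0 min, so that the late window holds arrays on either side of time 0. The window means of LYS2 did not pass the test against time 0, at 0.26 ± 0.16 early (adjusted p = 0.23) and 0.05 ± 0.15 late after MMS (adjusted p = 0.749), and at -0.17 ± 0.16 (adjusted p = 0.43) and 0.06 ± 0.15 (adjusted p = 0.797) after H2O2. The late MMS interval reached from -0.27 to 0.38 log2.

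LYS5 had log2 signals of 8.32, 8.82, 8.64, 8.46, 8.62 and 8.62 in the H2O2 course and of 8.22, 8.69, 8.82, 8.97, 9.03 and 9.08 in the MMS course. All 10 stressed arrays were above both arrays at 0 min. The MMS course climbed at every time point, while the H2O2 course peaked at 30 min. LYS5 rose by 0.46 ± 0.11 early after H2O2 (adjusted p = 0.0122), by 0.49 ± 0.11 early after MMS (adjusted p = 0.0113) and by 0.76 ± 0.10 late after MMS (adjusted p = 0.000113, 1.69-fold), the largest of the 5 rises in that window. In the late H2O2 window it was at 0.30 ± 0.10 (adjusted p = 0.0698), which passed with arrays centred on their medians (0.33, adjusted p = 0.0467) or quantile normalized (0.34, adjusted p = 0.0464). The MMS courses of LYS2 and LYS5 were not tested against each other.

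The closing steps are run by the saccharopine dehydrogenases Lys9, which makes saccharopine, and Lys1, which splits it into lysine and 2-oxoglutarate. LYS9 had the narrowest range of the 9 genes over the 12 arrays, with signals between 12.81 and 12.98 log2 in the H2O2 course and between 12.82 and 12.99 in the MMS course. Its late window means were 0.13 ± 0.08 after H2O2 (adjusted p = 0.283) and 0.15 ± 0.08 after MMS (adjusted p = 0.117). LYS1 had signals of 12.29, 12.28, 12.37, 12.56, 12.49 and 12.28 after H2O2 and of 12.25, 12.63, 12.91, 12.92, 12.84 and 12.86 after MMS. The 5 stressed MMS arrays were all above every array of the H2O2 course, which had returned to its starting signal by 180 min. LYS1 rose by 0.50 ± 0.12 early (adjusted p = 0.0176) and by 0.60 ± 0.11 late after MMS (adjusted p = 0.000903, 1.52-fold), and was at 0.05 ± 0.12 (adjusted p = 0.77) and 0.17 ± 0.11 (adjusted p = 0.309) after H2O2. The signals of LYS9, LYS12, LYS20 and LYS1 lay above the 95th percentile of genes on each array, at up to 13.09 log2 against array maxima from 13.57 to 13.70. Whether bright probe sets respond less on these arrays was not tested.

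The regulator gene LYS14 had log2 signals of 9.72, 9.85, 9.99, 10.12, 10.07 and 9.95 after H2O2 and of 9.65, 9.99, 9.99, 10.05, 10.17 and 10.27 after MMS. All 10 stressed arrays were above both arrays at 0 min, with a peak at 100 min of H2O2 and the highest MMS signal at 180 min. LYS14 rose in the late H2O2 window by 0.36 ± 0.10 (adjusted p = 0.0371) and in the late MMS window by 0.48 ± 0.10 (adjusted p = 0.00147, 1.39-fold). The early windows were at 0.24 ± 0.11 (adjusted p = 0.114) and 0.31 ± 0.11 (adjusted p = 0.0521). These are levels of the regulator's own messenger RNA, and its protein and activity were not measured.

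Counted over the route, 2 of 9 genes were called higher in the early H2O2 window (LYS5 and LYS20) and none lower, where limma called 33.7% of all genes, 14.7% higher and 19% lower. The median log2 change of the 9 genes was 0.05, against -0.04 for all genes. In the late H2O2 window 1 of 9 was called higher (LYS14), against 9.12% of all genes higher, 6.28% lower and 15.4% in either direction, with medians of 0.15 and -0.06. The number of all genes called after peroxide swung widely with 1 array left out. A lower count among the 9 genes in such a refit is thus no result about them. The peroxide calls of the 9 genes also changed when single arrays were left out. An array outside the 2 groups compared does not alter the log2 change. It enters a call only through the shared spread and the adjustment over all genes. The early count was 0 without the 30 min array or without either array at 0 min, and 1 without the 60 min H2O2 array (LYS5). The late call of LYS14 was lost without either array at 0 min (0.40, adjusted p = 0.155, without that of the H2O2 course, and 0.33, adjusted p = 0.23, without that of the MMS course), without the 100 or 140 min H2O2 array (adjusted p = 0.119 and 0.12), or without the 140 min MMS array (adjusted p = 0.0648).

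In the early MMS window 4 of 9 genes were called higher (LYS1, LYS5, LYS20 and LYS21) and none lower, against 18.7% and 14.3% of all genes (33.1% together), with a median log2 change of 0.31 against 0.02. The count was 0 without the 60 min MMS array or the 0 min array of the MMS course, and 1 (LYS21) without that of the H2O2 course. The number of all genes called early after MMS also varied widely with 1 array left out, so these lower counts are no result about the lysine genes. In the late MMS window 5 of the 9 genes were higher and 1 was lower. There 40.3% of all genes were called higher and 34.6% lower, and the medians were 0.48 and 0.09. The 6 called of 9 thus stood beside a background of 74.9%, so that this share is no result about the lysine genes. The same 6 genes were called when any 1 of the 12 arrays was left out.

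**Figure D2:**
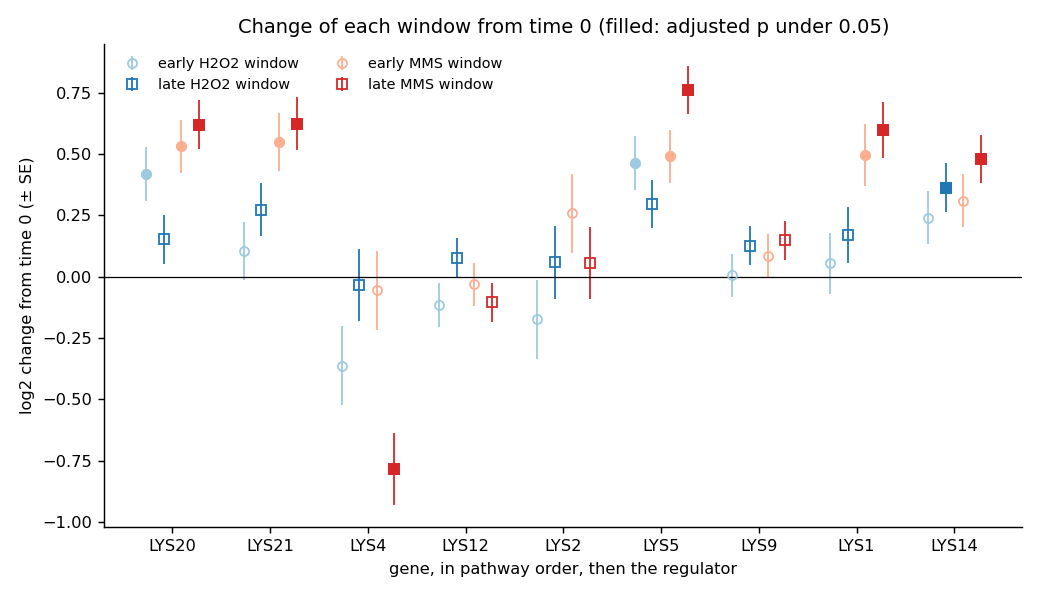
Log2 change from time 0 (vertical axis, ± SE from limma) of each gene, in pathway order with the regulator last. Circles are early (n = 2) and squares late windows (n = 3), blue after H2O2 and red after MMS, and filled symbols passed at an adjusted p under 0.05. The late MMS values run from -0.78 for LYS4 to 0.76 for LYS5.

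Late against early windows were also compared. Here too, arrays outside the windows compared enter a call only through the shared spread and the adjustment. After MMS, LYS4 fell further by 0.73 on the log2 scale (SE 0.15, adjusted p = 0.00524) and LYS5 rose further by 0.27 ± 0.10 (adjusted p = 0.0457), where 21.5% of all genes were lower and 27.1% higher in the late window (48.6% together). Without the 30 min MMS array neither passed (LYS4 at -0.55, adjusted p = 0.0592, and LYS5 at 0.20, adjusted p = 0.256). LYS5 was also lost without either array at 0 min (adjusted p = 0.0656 for both), the 140 or 180 min H2O2 array (adjusted p = 0.069 and 0.059) or the 140 or 180 min MMS array (adjusted p = 0.102 and 0.103). LYS2 passed without the 100 min MMS array, at -0.35 (adjusted p = 0.0394), against -0.20 ± 0.15 (adjusted p = 0.269) with it. After H2O2 limma called 0 of 9 genes between the windows, with 3 at an unadjusted p under 0.05 and 9.07% of all genes called (4.31% higher and 4.75% lower).

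MMS and H2O2 were then set against each other in each window. This test compares signal levels, so any gap between the courses at 0 min stays in the difference. That gap (MMS minus H2O2 course) ran from -0.21 log2 for LYS21 to 0.07 for LYS2. Whether the changes from each course's own 0 min array differed was not tested. In the late window 4 genes were higher after MMS (39.2% of all genes) and 2 lower (31.3%), with 70.5% of all genes called. LYS20 was higher by 0.47 ± 0.09 (adjusted p = 0.00108), LYS5 by 0.46 ± 0.09 (adjusted p = 0.00108), LYS1 by 0.43 ± 0.10 (adjusted p = 0.00378) and LYS21 by 0.35 ± 0.10 (adjusted p = 0.00876). LYS4 was lower after MMS by 0.75 (-0.75 ± 0.13, adjusted p = 0.000655). For each of these 5 genes the 3 late arrays of one stress did not overlap those of the other, as for 76.9% of all genes, and the calls held when any 1 array was left out.

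LYS12 was lower after MMS in the late window (-0.18 ± 0.07, adjusted p = 0.0456), also without overlap, but this small difference passed in only 8 of 20 alternatives. It was lost without either array at 0 min, any of the 5 H2O2 arrays after 0 min, or the 140 or 180 min MMS array, with adjusted p from 0.0569 to 0.121, and with quantile normalization (-0.11, adjusted p = 0.193). The late differences of the other 3 genes did not pass. LYS14 was at 0.12 with a 95% interval from -0.08 to 0.31, LYS9 at 0.02 (-0.14 to 0.18) and LYS2 at -0.0036 (-0.30 to 0.29).

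In the early window limma called 0 of 9 genes between the stresses, with 3 (LYS1, LYS2 and LYS21) at an unadjusted p under 0.05, and 8.13% of all genes called (5.74% higher and 2.39% lower). All 9 differences were above 0. LYS21 (0.44 ± 0.12, adjusted p = 0.0504) and LYS1 (0.44 ± 0.12, adjusted p = 0.0587) lay close to the threshold. Both passed with quantile normalization, with a variance trend, with an early window of 30 to 100 min, or without the 30 min MMS array (LYS1 at 0.58, adjusted p = 0.0195, and LYS21 at 0.53, adjusted p = 0.0333). LYS1 passed with the time points paired as blocks (adjusted p = 0.0292), and LYS2 without the 180 min MMS array (0.43, adjusted p = 0.0462). Centring the arrays on their medians moved the median of all genes in this contrast from 0.05 to -0.06, a shift of over 0.1, and turned the sign of LYS5, LYS9, LYS12 and LYS14. The share of calls that were higher after MMS went from 70.7% to 46.1% with centring and 57.4% with quantile normalization.

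Time point by time point, LYS1 was higher after MMS at 5 of 5 times, by 0.35 to 0.58 log2, and LYS21 at 5 of 5, by 0.25 to 0.63. LYS20 and LYS5 were higher after MMS from 60 min on and slightly lower at 30 min (-0.03 and -0.13). LYS4 changed sides, with differences of 0.33 and 0.28 at 30 and 60 min and of -0.52, -0.86 and -0.88 at 100, 140 and 180 min. LYS2 went the same way later, from 0.49 at 60 min to -0.26 at 180 min. These are single pairs of arrays without a test, and at 0 min the 9 differences lay between -0.21 and 0.07.

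**Figure D3:**
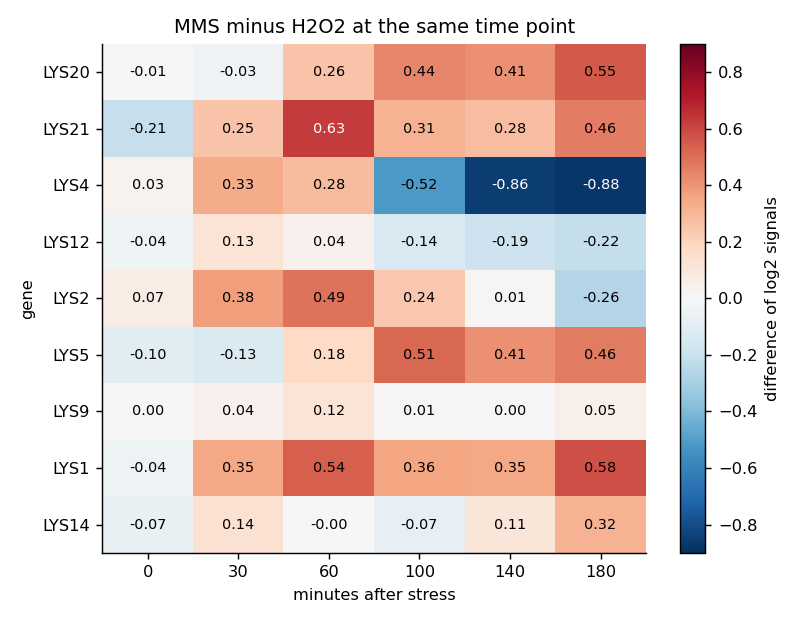
Difference of log2 signals, MMS minus H2O2, for each gene (rows, pathway order) at each time point (columns, minutes), with 1 array of each course per cell. Red is higher and blue lower after MMS. LYS4 moves from 0.33 at 30 min to -0.88 at 180 min, and LYS1 is above 0 at all 5 times after the start.

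The genes of the route did not share 1 time course. Over the 6 MMS arrays, the Pearson correlation of log2 signals was 0.996 between LYS1 and LYS20, 0.99 between LYS20 and LYS21 and 0.98 between LYS1 and LYS21. Over the 6 H2O2 arrays the same pairs were at 0.09, -0.08 and 0.62. LYS4 was negatively correlated with LYS5 after MMS (-0.81) and positively with LYS12 in both courses (0.75 after H2O2 and 0.87 after MMS). LYS2 followed LYS12 after H2O2 (0.94) and MMS (0.77). The arrays of a course share its treatment and its normalization, and these correlations are descriptions over 6 arrays each.

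**Figure D4:**
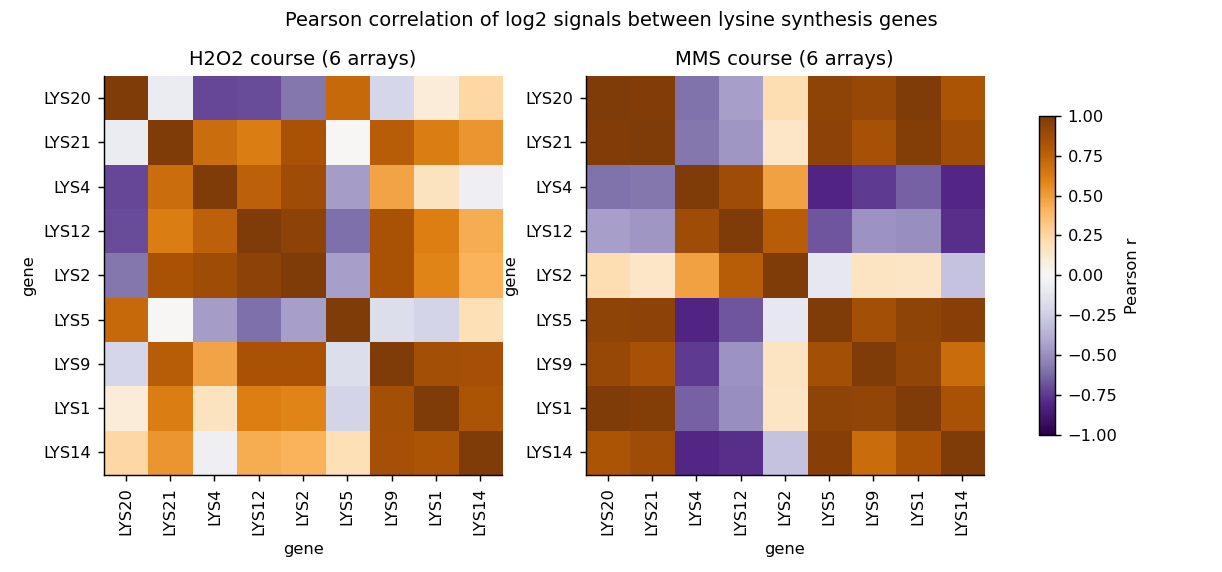
Pearson correlation of log2 signals between each pair of lysine synthesis genes over the 6 arrays of the H2O2 course (left) and the 6 of the MMS course (right), with the colour scale from -1 to 1. LYS1 and LYS20 are at 0.996 after MMS and at 0.09 after H2O2.

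Among all other genes, the course of LYS20 over the 12 arrays was closest to that of LEU4 (Pearson r = 0.989). LEU4 encodes the main 2-isopropylmalate synthase of leucine synthesis, an enzyme of the same family as homocitrate synthase that also condenses acetyl-CoA with an oxo acid. LEU4 had signals of 11.70, 12.29, 12.35, 12.10, 11.99 and 11.84 log2 after H2O2 and of 11.81, 12.32, 12.54, 12.63, 12.49 and 12.47 after MMS, a late MMS rise of 0.78 ± 0.11 (adjusted p = 0.000177). SDP1 (0.983), a phosphatase gene, and NVJ1 (0.982), a gene of the nucleus-vacuole junction, came next. A correlation does not reflect the size of a change. Late after MMS, SDP1 rose by 4.06 and NVJ1 by 1.48 on the log2 scale, against 0.62 for LYS20.

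LEU9, the paralog of LEU4, went the other way from LEU4 and fell by 2.38 on the log2 scale in the late MMS window (SE 0.36, adjusted p = 0.000252). The nearest genes to LYS21 were YSW1 (0.961), SSU1 (0.926), a sulfite pump, and DDI3 (0.921), and to LYS14 they were SSA1 (0.952), a cytosolic Hsp70 chaperone, YNR071C (0.939) and EMP46 (0.927). Their changes were larger. Late after MMS, YSW1 rose by 3.68, SSU1 by 2.97 and DDI3 by 7.61 on the log2 scale, against 0.62 for LYS21. SSA1 rose by 1.13, YNR071C by 1.66 and EMP46 by 2.68, against 0.48 for LYS14. Likeness to the mean of the 7 enzyme genes was lower, from 0.895 for YHR022C through YPL264C, FIT1, MPC2, ISC1, ORT1 and ARO10 to 0.811 for IST3. Group means of YHR022C (3.96 to 4.83 log2), FIT1 (4.81 to 5.25) and ARO10 (4.06 to 6.06) lay far below the array medians. Their likeness is thus uncertain. Of the 7 genes averaged, LYS2 and LYS21 correlated with that mean at 0.83, LYS1 at 0.79, LYS9 at 0.70, LYS20 at 0.60, LYS12 at 0.16 and LYS4 at -0.03.

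Neighbouring steps of the route are run by proteins with other duties. Of 5 such genes measured, 2 rose and 0 fell in the late MMS window (median 0.15, against 0.09 for all genes). There 40.3% of all genes rose and 34.6% fell. The share that rose is thus near the background and the share that fell is under it, on only 5 genes. ARO9, an aromatic aminotransferase, rose by 2.96 ± 0.54 (adjusted p = 0.000722) and by 2.47 ± 0.59 early (adjusted p = 0.0151). Its relative ARO8, which also acts on aminoadipate, was at 0.15 ± 0.09 late (adjusted p = 0.141). The aconitase gene ACO1, an iron-sulfur enzyme gene like LYS4, rose by 0.57 ± 0.14 in the late MMS window (adjusted p = 0.00394) and by 1.04 ± 0.14 in the late H2O2 window (adjusted p = 0.00538). The mitochondrial oxodicarboxylate carriers that move 2-oxoadipate were at 0.07 ± 0.12 (ODC1, adjusted p = 0.61) and -0.11 ± 0.15 (ODC2, adjusted p = 0.516) late after MMS. ODC1 rose in the late H2O2 window by 0.52 ± 0.12 (adjusted p = 0.0245) and ODC2 in the early MMS window by 0.51 ± 0.17 (adjusted p = 0.043).

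Of the 10 genes for the supply of 2-oxoglutarate and acetyl-CoA, 7 rose and 1 fell late after MMS (median 1.01 against 0.09 for all genes), where 40.3% of all genes rose and 34.6% fell. Late after H2O2 6 rose and 0 fell (median 0.77 against -0.06), where 9.12% of all genes rose and 6.28% fell. Pyruvate carboxylase PYC1 rose by 1.76 ± 0.29 (adjusted p = 0.000391) and cytosolic isocitrate dehydrogenase IDP2 by 1.60 ± 0.17 (adjusted p = 5.49e-05) after MMS. Citrate synthase CIT1 rose by 1.45 ± 0.21 and the isocitrate dehydrogenase subunit IDH1 by 1.41 ± 0.19. ACS2, the acetyl-CoA synthetase of cells growing on glucose, fell by 1.82 on the log2 scale (SE 0.23, adjusted p = 9.57e-05). Late after H2O2, PYC1 rose by 1.55 ± 0.29, CIT1 by 1.44 ± 0.21, IDH1 by 1.28 ± 0.19 and IDP2 by 0.69 ± 0.17. Of these named genes, only IDP2 (0.91 ± 0.15) and ACS2 (-1.91 ± 0.20) were called late for MMS against H2O2.

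Of 10 genes for lysine uptake, storage and charging, 3 were higher and 4 lower late after MMS (median -0.10 against 0.09), near the 40.3% and 34.6% of all genes. RTC2, a vacuolar transporter of basic amino acids, rose by 1.64 ± 0.20 (adjusted p = 8.64e-05) in that window. Late after H2O2 it rose by 1.41 ± 0.20 (adjusted p = 0.00573). Its early rises were 1.17 ± 0.22 after H2O2 and 2.21 ± 0.22 after MMS. VBA3 was also called higher late after MMS (0.68 ± 0.22, adjusted p = 0.0163). However, its signals lay between 3.18 and 4.21 log2, far below the array medians, so the size of that change is uncertain. The arginine permease gene ALP1 was at -0.34 ± 0.36 late after MMS (adjusted p = 0.417) and 0.90 ± 0.36 late after H2O2 (adjusted p = 0.114), and was lower after MMS than after H2O2 (-1.24 ± 0.32, adjusted p = 0.0063). The vacuolar transporter genes VBA1 and YPQ1 fell by 1.29 (SE 0.20) and 1.25 (SE 0.20) on the log2 scale. The lysine permease gene LYP1 fell by 0.55 (SE 0.13, adjusted p = 0.00296) and the cytosolic lysyl-tRNA synthetase gene KRS1 by 0.53 (SE 0.11, adjusted p = 0.00186), both named after their values were seen.

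Among 8 regulators, 3 rose and 1 fell late after MMS (median 0.31 against 0.09), where 40.3% of all genes rose and 34.6% fell. Those that rose were the retrograde pathway genes RTG2 (0.74 ± 0.14) and RTG3 (0.58 ± 0.11) and MKS1 (0.71 ± 0.10). MKS1, also known as LYS80, encodes a negative regulator of that pathway. GCN1, which is needed to activate the Gcn2 kinase, fell by 1.14 (SE 0.18, adjusted p = 0.000339). Late after H2O2 MKS1 and RTG3 fell, by 0.34 (SE 0.10, adjusted p = 0.0429) and 0.38 (SE 0.11, adjusted p = 0.0383). GCN20, the partner of GCN1, was at 0.24 ± 0.13 late after MMS (adjusted p = 0.125) and -0.37 ± 0.13 late after H2O2 (adjusted p = 0.0897), and higher after MMS than after H2O2 (0.61 ± 0.12, adjusted p = 0.00125). GCN4, named after its values were seen, had signals between 12.59 and 12.80 log2 on all arrays and was at -0.08 ± 0.08 late after MMS (adjusted p = 0.38). Gcn4 is controlled mainly through translation, which arrays do not measure.

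Of 51 other amino acid synthesis genes, 15 were higher and 17 lower late after MMS (median -0.07 against 0.09), where 40.3% of all genes were higher and 34.6% lower. The 5 with the largest changes all fell, LEU9, ILV5 (-2.18 ± 0.22) and ILV3 (-2.02 ± 0.29) of branched-chain synthesis, glutamate synthase GLT1 (-2.13 ± 0.31) and PRO1 (-1.53 ± 0.33) of proline synthesis. Others rose by more than any lysine gene, such as ARG3 (1.46 ± 0.26, adjusted p = 0.000643) and ARG4 (1.09 ± 0.20, adjusted p = 0.000751). Both were named after their values were seen. The largest late MMS change among the lysine genes, by either sign, was 0.76 for LYS5 and -0.78 for LYS4. Early after MMS 11 of the 51 were higher and 3 lower (median 0.12 against 0.02), where 18.7% and 14.3% of all genes were. Late after H2O2 0 were higher and 1 lower by limma, with 10 at an unadjusted p under 0.05 (median -0.18 against -0.06), where 9.12% and 6.28% of all genes were.

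**Figure D5:**
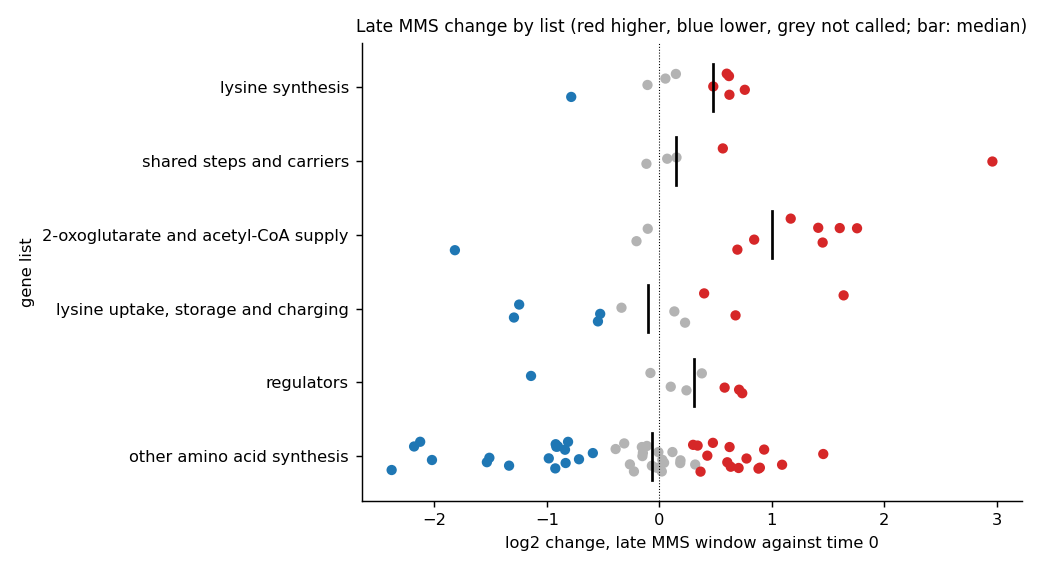
Log2 change of the late MMS window from time 0 (horizontal axis) for the lysine synthesis genes and 5 related lists (rows), 1 point per gene, with a black bar at each list's median. Red points were called higher, blue lower and grey points were not called. The lysine genes lie between -0.78 and 0.76 with a median of 0.48, and the other amino acid genes between -2.38 and 1.46.

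Array medians over the genes lay between 9.06 and 9.20 log2, the median absolute difference between the 2 arrays at 0 min was 0.076, and the median residual SD was 0.169. The labels of the courses were checked with stress genes. CTT1, a catalase, was at 4.56 early after H2O2 and 1.97 early after MMS, and MAG1, a glycosylase for alkylated bases, was higher late after MMS than after H2O2 by 2.19 ± 0.34 (adjusted p = 0.00033). Early, MAG1 rose by 2.13 after either stress. HUG1, a DNA damage response gene, rose late by 3.72 ± 0.50 after H2O2 (adjusted p = 0.00538) and by 2.91 ± 0.50 after MMS (adjusted p = 0.000487), and the stresses did not differ by the test (adjusted p = 0.129). SRX1, a peroxide response gene, rose early after both, by 6.60 and 6.62. Late it was higher after MMS than after H2O2, by 4.87 ± 0.59 (adjusted p = 8.38e-05). TSA2 rose early by 7.12 after H2O2 and 5.42 after MMS, and RNR3 late by 2.61 and 3.06. Neither of these was called between the stresses. These genes do not all separate the courses by their labels.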

How the data were processed

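RNA was copied into cDNA from poly(T) primers and labelled as biotin cRNA for 12 one-colour Affymetrix arrays, per the labels' protocols. The table holds log2 signals per probe set, deposited after RMA per the submitters' processing notes. Its version, and whether all arrays were normalized together, are not given in the sources used here. The number of arrays limits the precision. Of 5716 probe sets, without 184 controls, 5498 had 1 gene in the platform annotation, and keeping the brightest of each gene left 5449 genes. A linear model with 5 groups was fitted to all genes with limma 3.58.1 in R 4.3.3 (7 residual and 2.71 prior degrees of freedom). P-values were adjusted over all genes (Benjamini-Hochberg), and an adjusted p under 0.05 was called. The fit was tested on simulated data. Alternatives changed the baseline (own 0 min array, which equals leaving out the other), the scaling (median centring, quantile), the low filter (25% of genes), the variance model (trend, robust), probe set averaging, the window limits and the blocking by time point, or left out an array. The members and related lists were chosen with earlier results of these data known. Of each related list, the 5 genes with the largest changes were named, apart from genes said to be named later. Some listed genes are not reported here. Listed as YPQ3, RTC2 counts once. Promoter and protein sequences were not used here.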

Additional observations from a re-analysis of the deposited data

Results flagged for a closer look

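Between the stresses in the late window, 6 of 9 genes differed by the limma test of MMS against H2O2. The same test called 70.5% of all genes, so this share is no result about the lysine genes. The log2 differences of the 6 genes were -0.75 for LYS4, 0.47 for LYS20, 0.46 for LYS5, 0.43 for LYS1, 0.35 for LYS21 and -0.18 for LYS12. In the early window the 2 MMS arrays of LYS2 lay above both arrays at 0 min and the 2 H2O2 arrays below both, a difference of 0.43 that did not pass the test (adjusted p = 0.123).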

How the results depend on the processing

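Of 418 recomputed values for the 21 gene-level calls, 355 stayed past the threshold, 63 lost it and 0 turned sign. Of 1004 values for the 51 changes not called, 19 passed and 33 turned sign, 0 of these with a call. The late MMS calls of LYS1, LYS4, LYS5, LYS14, LYS20 and LYS21 held in all 20 alternatives (7 genes with the variance trend, which added LYS9). The count of 6 for MMS against H2O2 late was 5 or 6 throughout. Changed counts of called genes follow. Against the 0 min array of the same course they were 0 for early H2O2, 0 for late H2O2 and 1 for early MMS. With the early window at 30 min only, where the lone array is assumed to vary like the other groups, they were 0 for early H2O2, late H2O2, early MMS and late against early MMS. At 30 to 100 min they were 1 for early H2O2, 0 for late H2O2, 2 for MMS against H2O2 early and 0 for late against early MMS. Late H2O2 gave 2 with median centring and 2 with quantile normalization, which gave 1 for late against early MMS. MMS against H2O2 early gave 2 with quantile normalization, 2 with the variance trend, 1 without dim genes and 1 (LYS1) with time point as replicate block. That block changed no other call. With 1 array left out, counts ranged from 0 to 2 for early H2O2, 0 to 1 for late H2O2, 0 to 5 for early MMS, 0 to 3 for late against early MMS and 0 to 2 for MMS against H2O2 early. Over all genes, the number called in these comparisons also varied widely with 1 array left out, so these ranges are no result about the lysine genes. The labels pair stresses only by time point. Among the changes without a call, these turned sign. With quantile normalization, values were -0.0077 (LYS1) and -0.0117 (LYS9) for early H2O2, 0.0125 (LYS12) for early MMS, -0.078 (LYS5) for MMS against H2O2 early and 0.072 (LYS2) late. With median centring they were -0.0100 (LYS2) for late MMS, -0.0747 (LYS9) for MMS against H2O2 late and, early, -0.078 (LYS5), -0.0247 (LYS9), -0.0209 (LYS12) and -0.0355 (LYS14). With 30 min only they were -0.0060 (LYS9) for early H2O2, -0.0095 (LYS2) for late H2O2, 0.125 (LYS4) for early MMS, -0.0052 (LYS21) for late against early H2O2, -0.127 (LYS5) and -0.0324 (LYS20) for MMS against H2O2 early and 0.12 (LYS2) late. At 30 to 100 min they were -0.0882 (LYS2) for late MMS and -0.0219 (LYS1) for late against early H2O2. With 1 array left out, values ranged from -0.0060 to 0.018 (LYS9, early H2O2), -0.235 to 0.125 (LYS4, early MMS) and -0.0882 to 0.211 (LYS2, late MMS). For late against early MMS they ranged from -0.0344 to 0.242 (LYS1), -0.0215 to 0.199 (LYS20) and -0.0088 to 0.158 (LYS21). For MMS against H2O2 they ranged, early, from -0.0604 to 0.114 (LYS5) and -0.00074 to 0.14 (LYS14) and, late, from -0.146 to 0.152 (LYS2) and -0.0042 to 0.0384 (LYS9). The cause of these shifts was not tested.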
